A study of Mus musculus with 8 samples.

Results

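The genes described here are 36 genes of the ureteric trunk and collecting duct and of general epithelial identity. They were chosen by name, with earlier results of these data known. They encode transporters and hormone receptors of the collecting duct, keratins, claudins, membrane-bound proteases with their inhibitors, and transcription and splicing regulators of epithelia. All 36 were measured, among 22180 genes, and each is represented by the probe set with the highest mean over the 8 arrays. They were compared between kidneys of 4 mouse embryos labelled Grb2 UB-cKO (called Grb2_cKO below), in which Grb2 was knocked out in the ureteric bud, and kidneys of 4 wild-type control embryos, all at E14.5 (embryonic day) and from 1 litter. Each array held the pooled kidneys of 1 embryo, so every cell type of the organ contributed RNA while the deletion was restricted to the ureteric lineage. Cre driver, Grb2 allele and strain are unnamed in the sources used here.

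The ureteric bud is an epithelial tube that branches into the kidney mesenchyme. Its tips proliferate under RET signalling, which the adaptor GRB2 links to RAS and ERK, while the trunk behind the tips matures into the collecting duct, where principal cells reabsorb water and sodium and intercalated cells handle acid and base. GRHL2, ELF-type ETS factors and TFCP2L1 act in such epithelia upstream of junction, keratin and transport genes, and the ESRP proteins set epithelial splicing. Many of the general epithelial genes are also transcribed in nephron tubules, so a whole-kidney level is a sum over several epithelia.

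Grb2 itself was lower in every Grb2_cKO kidney, at 8.36, 8.17, 8.22 and 8.06 on the log2 scale in replicates 1 to 4, against 8.68, 8.65, 8.61 and 8.66 in controls (exact permutation p = 0.0286, two-sided, the smallest that 4 against 4 allows). The groups also differed in sex-linked and blood genes. The mean of the 3 measured Y-linked genes ran from 9.94 to 10.1 over the 4 Grb2_cKO embryos and was 9.94 in control replicate 3, but 4.09 to 4.24 in the other controls. The mean of 7 erythroid markers lay between 7.30 and 7.95 for Grb2_cKO, above the controls (6.47 to 6.96). Each result below is therefore also given, where the call changes, after adjustment for the Y-linked mean. That estimate rests on control replicate 3, the one control with high Y-linked values, and that embryo also helped choose the genes called. With the erythroid mean as a covariate, which is nearly the same split as the groups, 81 of 22180 genes and 0 of the 36 passed in limma, and 16 of the 36 had passed as lower and 2 as higher without it. The part of sex and of blood content in the results was not tested further.

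Of the 36 genes, 16 were lower and 2 higher in Grb2_cKO at an adjusted p under 0.05, and 18 did not pass. Over all genes 28.1% passed, 14.3% as lower and 13.7% as higher. The share of lower genes among the 36 (44.4%) stood above this background and the share of higher genes (5.56%) below it. The 36 were chosen with earlier results of these data known, so these shares describe the list and are not a result about such genes. The median log2 fold change of the 36 was -0.29, beside 0.0058 over all genes. The embryo values separated completely for 17 of the 36, with 16 lower and 1 higher in Grb2_cKO, beside 31.2% of all genes, 16% lower and 15.2% higher. Krt23, Epcam and Ehf were the 3 that fell at least 2-fold, and 1.73% of all genes changed that far in either direction and passed. When each array was centred on its median, 19 of the 36 were lower and 2 higher, and the share of lower genes among all called rose from 51.1% to 63.1%. Adjusted for the Y-linked mean, 6 of the 36 passed as lower and 0 as higher, beside 5.62% of all genes, 2.76% lower and 2.85% higher, and the median of the 36 was -0.32. With control replicate 3 as the only control, Krt23, Ehf, Cldn3 and Grhl2 passed, beside 1.28% of all genes. All 18 called genes kept their sign in both of these fits, and control replicate 3 lay above every Grb2_cKO embryo for all 16 lower genes. Much of this was fixed in advance, since that embryo helped make the calls and most of the lower genes had no overlap between the groups. In bulk RNA, fewer ureteric cells and less RNA per ureteric cell cannot be told apart.

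**Figure D1:**
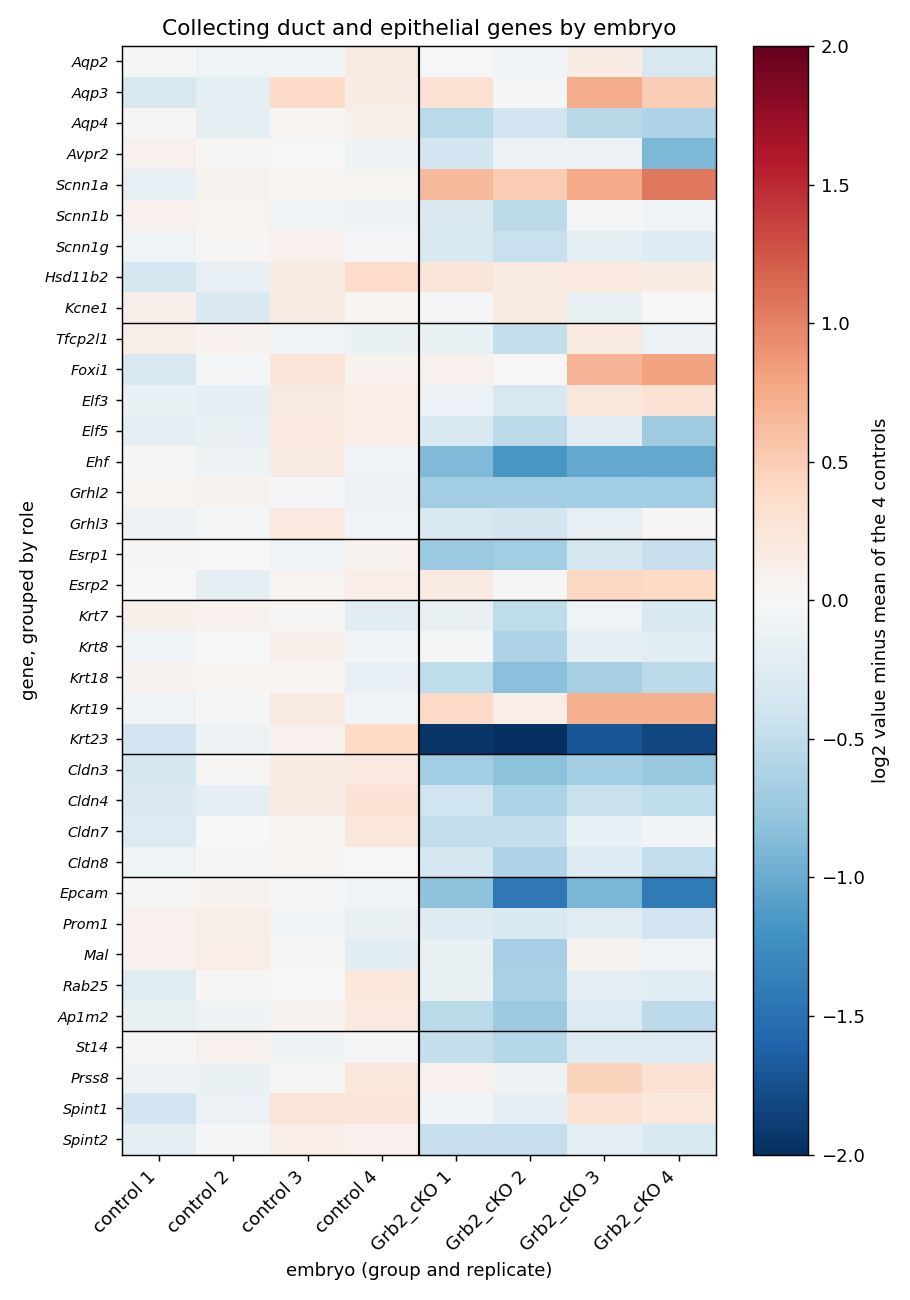
Value of each of the 36 genes (rows, grouped by role and divided by lines in the order transport, transcription factors, splicing regulators, keratins, claudins, surface and sorting, proteases and inhibitors) in each embryo (columns), as the log2 value minus the mean of the 4 controls. Krt23, Epcam, Ehf and Grhl2 are lower in all 4 Grb2_cKO embryos, while Scnn1a is higher in all 4.

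For 4 of the genes that fell, the largest changes among those with a match to a searched motif, the 250 bases before the RefSeq gene start are shown, since these genes fell together. They are given on GRCm38.p6, 5′ to 3′ on the gene's strand in lower case, with the matched letters in capitals.
Krt23 (chr11:99493121-99493370, minus strand): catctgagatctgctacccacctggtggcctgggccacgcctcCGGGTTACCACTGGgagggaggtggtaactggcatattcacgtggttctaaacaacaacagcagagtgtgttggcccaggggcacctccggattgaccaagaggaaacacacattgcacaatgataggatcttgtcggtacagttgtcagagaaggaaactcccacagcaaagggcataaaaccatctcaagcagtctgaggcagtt
Cldn3 (chr5:134985964-134986213, plus strand): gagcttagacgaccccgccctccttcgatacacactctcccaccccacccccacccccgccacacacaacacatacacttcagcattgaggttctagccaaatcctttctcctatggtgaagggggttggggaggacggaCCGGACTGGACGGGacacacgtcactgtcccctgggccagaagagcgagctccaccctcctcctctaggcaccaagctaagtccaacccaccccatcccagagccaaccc
Krt18 (chr15:102027966-102028215, plus strand): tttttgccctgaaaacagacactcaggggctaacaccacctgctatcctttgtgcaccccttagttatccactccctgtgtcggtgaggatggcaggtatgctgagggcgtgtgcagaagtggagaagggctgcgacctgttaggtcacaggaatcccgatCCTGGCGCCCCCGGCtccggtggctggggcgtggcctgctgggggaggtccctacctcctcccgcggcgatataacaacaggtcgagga
Elf5 (chr2:103411848-103412097, plus strand): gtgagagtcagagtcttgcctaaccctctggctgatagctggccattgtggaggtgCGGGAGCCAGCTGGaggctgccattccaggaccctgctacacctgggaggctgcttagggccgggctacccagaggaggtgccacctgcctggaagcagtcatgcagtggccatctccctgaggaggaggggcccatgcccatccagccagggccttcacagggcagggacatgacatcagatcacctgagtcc
The capitals mark matches to 2 copies of CCNG with 6 bases between them, on either strand, a spaced repeat of the kind bound by TFCP2L1, and in Krt18 this match overlaps one to the AP-2 motif GCCNNNGGC. Counted from the start, the first matched base lay at -207 in Krt23, -110 in Cldn3, -89 in Krt18 and -194 in Elf5, where it was found at 1 of 2 listed starts. Promoters were held for 24 of the 36 genes. The spaced repeat was found in 6 of 10 lower genes and 7 of the 14 others, beside 32.9% of 15379 protein-coding genes. The AP-2 motif was found in 6 of the 24 (19.0% of all). The GRHL motif AACCNGTT, searched on both strands like the rest, was found in 2 of the 24 (1.99% of all), of which Prom1 was lower, and the ETS motif CGGAAGT in 2 (7.46%), neither of them lower. The HNF1 palindrome had 0 matches among the 24, but only 1 among the 15379 genes. A search this strict cannot tell whether these promoters lack HNF1 sites. These matches describe letters in a short window and no binding was measured.

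Among the transcription factors 3 of 7 fell and 4 did not pass (median -0.20), beside 14.3% of all genes lower. Ehf, an ETS factor of epithelia, stood at 7.87, 7.75, 8.01 and 7.76 in control replicates 1 to 4 and at 6.96, 6.68, 6.83 and 6.83 in Grb2_cKO replicates 1 to 4. All Grb2_cKO values lay far below the lowest control, and the level fell to 49.2% of control (log2 fold change -1.02, SE 0.09, adjusted p = 7.55e-05). Elf5, the gene next to Ehf on chromosome 2 with no protein-coding gene between them, stood at 6.23, 6.29, 6.61 and 6.56 in controls and at 6.12, 5.90, 6.22 and 5.72 in Grb2_cKO. The groups were separated by a narrow gap (-0.44, SE 0.13, adjusted p = 0.0296). Ranked by mean level from the dimmest gene, Elf5 stood at 34.2% of all genes, and its nearness to background is unknown. The call on Elf5 was lost without control replicate 3 (-0.37, adjusted p = 0.0790), control replicate 4 (-0.39, 0.0736), Grb2_cKO replicate 2 (-0.41, 0.0694) or Grb2_cKO replicate 4 (-0.35, 0.0703). Elf3, the third ETS factor of the group, stood at 7.57, 7.52, 7.89 and 7.84 in controls and at 7.58, 7.39, 7.92 and 7.99 in Grb2_cKO, interleaved, and its log2 fold change was 0.02 (95% interval -0.31 to 0.34, adjusted p = 0.951).

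Grhl2, which maintains junctions and epithelial fate, stood at 7.74, 7.77, 7.67 and 7.58 in controls and at 6.99, 6.99, 7.01 and 6.996 in Grb2_cKO. The 4 Grb2_cKO embryos were nearly equal (SD 0.01) and all lay below the controls, at 61.8% of the control level (-0.69, SE 0.07, adjusted p = 0.000124). Its relative Grhl3 stood at 7.28, 7.35, 7.57 and 7.31 in controls and at 7.07, 7.02, 7.21 and 7.40 in Grb2_cKO, with overlap (-0.20, adjusted p = 0.181), but passed after quantile normalization (-0.28, adjusted p = 0.0442). Tfcp2l1, a regulator of collecting duct differentiation, overlapped between the groups, at 10.16 to 10.42 in controls and 9.83 to 10.48 in Grb2_cKO (-0.13, SE 0.13, adjusted p = 0.502). Foxi1, the master factor of intercalated cells, reached 8.76 and 8.90 in Grb2_cKO replicates 3 and 4 but stood at 8.18 and 8.10 in replicates 1 and 2, within the control range of 7.78 to 8.35 (0.39, SE 0.19, adjusted p = 0.168). Y-adjusted, Ehf at -1.18 (adjusted p = 0.00611) and Grhl2 at -0.67 (0.0170) passed and Elf5 at -0.62 (0.112) did not.

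Of the 2 splicing regulators 1 fell and 1 did not pass, beside 14.3% of all genes lower. Esrp1 stood at 8.40, 8.37, 8.31 and 8.46 in controls and at 7.65, 7.69, 8.04 and 7.93 in Grb2_cKO. Every Grb2_cKO embryo was below every control (-0.56, SE 0.10, adjusted p = 0.0019), though not past the threshold with the Y-linked covariate (-0.48, adjusted p = 0.115). Esrp2, its paralogue, stood at 7.89, 7.72, 7.96 and 8.03 in controls and at 8.08, 7.88, 8.32 and 8.30 in Grb2_cKO, slightly higher with overlap (0.24, SE 0.11, adjusted p = 0.146). Without Grb2_cKO replicate 2, the lowest of its group, Esrp2 passed as higher (0.33, adjusted p = 0.0383).

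**Figure D2:**
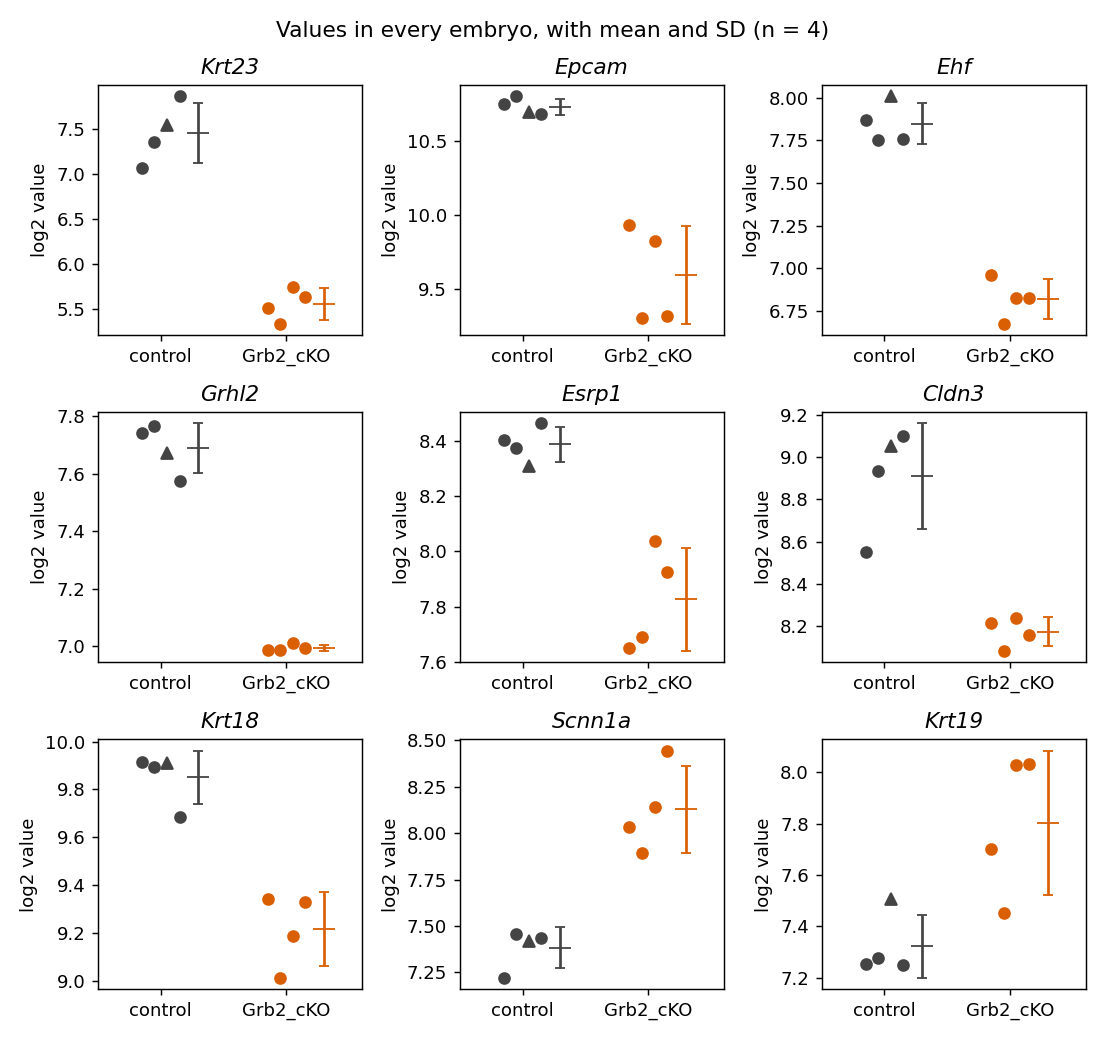
Log2 value of 9 of the genes in every embryo, 1 point per embryo, with the group mean and SD (n = 4 each) beside the points; the triangle is control replicate 3, the control with high Y-linked genes. The first 7 panels show genes that fell, with control replicate 3 above all Grb2_cKO embryos, and the last 2, Scnn1a and Krt19, genes that rose, of which Krt19 overlaps through control replicate 3.

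The keratins, which form the intermediate filaments of simple epithelia, split in direction: 2 of 5 fell, 1 rose and 2 did not pass (median -0.26). Over all genes 14.3% were lower and 13.7% higher. Krt23, a type I keratin, had the largest fall of the 36. It stood at 7.07, 7.35, 7.54 and 7.86 in controls and at 5.51, 5.33, 5.74 and 5.64 in Grb2_cKO, a gap of more than 1 log2 unit between the groups. This left 26.8% of the control level, a 3.73-fold fall (-1.90, SE 0.16, 95% interval -2.25 to -1.55, adjusted p = 7.15e-05). No detection calls were used here, so how near the Grb2_cKO values lay to background is unknown. Krt18, which pairs with Krt8 in simple epithelia, stood at 9.91, 9.89, 9.91 and 9.68 in controls and at 9.34, 9.01, 9.19 and 9.33 in Grb2_cKO. The groups were apart by more than their spread (-0.63, SE 0.09, adjusted p = 0.000912). Krt8, its type II partner and its neighbour on chromosome 15, stood at 9.68, 9.75, 9.84 and 9.69 in controls and at 9.72, 9.12, 9.55 and 9.52 in Grb2_cKO. Grb2_cKO replicate 1 lay within the controls and the test was not passed (-0.26, SE 0.12, adjusted p = 0.136).

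Krt19 went the other way, at 7.25, 7.28, 7.50 and 7.25 in controls and at 7.70, 7.45, 8.03 and 8.03 in Grb2_cKO. Grb2_cKO replicate 2 was below control replicate 3, the highest control, so the groups overlapped (0.48, SE 0.13, adjusted p = 0.0217). The call on Krt19 was lost without control replicates 1 (0.46, adjusted p = 0.0575), 2 (0.47, 0.0567) or 4 (0.46, 0.0523) and without Grb2_cKO replicates 3 (0.41, 0.0623) or 4 (0.41, 0.0572). In the Y-adjusted model, it stood at 0.30 (adjusted p = 0.484). Krt7, a keratin of ducts and urothelium, stood at 8.04, 8.01, 7.96 and 7.73 in controls and at 7.79, 7.42, 7.85 and 7.63 in Grb2_cKO, with overlap (-0.26, SE 0.11, adjusted p = 0.103), and passed without control replicate 4 (-0.33, adjusted p = 0.0497) and with arrays centred on their medians (-0.33, 0.0388). With the Y-linked covariate, Krt23 at -1.99 (adjusted p = 0.00846) and Krt18 at -0.69 (0.0399) passed. Keratins are shared with the urothelium, and of 12 measured urothelial markers 1 rose, Upk3b by 0.89 (SE 0.12, adjusted p = 0.000646), and 11 did not pass (median 0.06; Upk3b Y-adjusted 0.77, adjusted p = 0.0594, no longer past the threshold; mean level 6.13 to 6.39 in controls and 6.35 to 6.51 in Grb2_cKO). Over all genes 13.7% were higher. The part of urothelial cells in the keratin values was not tested.

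Of the claudins, which seal tight junctions and set their ion selectivity, 3 of 4 fell and 1 did not pass (median -0.46). Over all genes 14.3% were lower. Cldn3 stood at 8.55, 8.94, 9.05 and 9.10 in controls and at 8.22, 8.08, 8.24 and 8.16 in Grb2_cKO. The Grb2_cKO embryos were tightly grouped below a wider control group, at 60.0% of its level (-0.74, SE 0.12, adjusted p = 0.00126). Cldn4, which lies beside Cldn3 on chromosome 5, stood at 9.26, 9.37, 9.70 and 9.84 in controls and at 9.14, 8.90, 9.10 and 9.04 in Grb2_cKO. The highest Grb2_cKO embryo was just under the lowest control (-0.50, SE 0.13, adjusted p = 0.0153). Cldn8, a claudin of the distal nephron and collecting duct, stood at 11.06, 11.16, 11.20 and 11.14 in controls and at 10.80, 10.53, 10.88 and 10.64 in Grb2_cKO, again with no overlap (-0.43, SE 0.09, adjusted p = 0.00485). Cldn7 stood at 7.10, 7.39, 7.41 and 7.61 in controls and at 6.89, 6.89, 7.24 and 7.32 in Grb2_cKO, with overlap (-0.29, SE 0.13, adjusted p = 0.141). After adjustment for the Y-linked mean, Cldn3 passed (-0.89, adjusted p = 0.0314), and Cldn4 at -0.66 (0.0945) and Cldn8 at -0.48 (0.0933) did not.

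In the surface and sorting group 3 of 5 fell and 2 did not pass (median -0.29), beside 14.3% of all genes lower. Epcam, an adhesion molecule of epithelial cells, stood at 10.75, 10.80, 10.69 and 10.68 in controls and at 9.93, 9.31, 9.82 and 9.32 in Grb2_cKO. The controls were nearly equal, and Grb2_cKO replicates 2 and 4 were lower than replicates 1 and 3. The mean fell to 45.5% of control (-1.14, SE 0.14, adjusted p = 0.000418), and the gene passed with the Y-linked covariate (-1.08, adjusted p = 0.0367). Ap1m2, the epithelial subunit of the AP-1 adaptor that sorts proteins to the basolateral membrane, stood at 8.07, 8.11, 8.28 and 8.42 in controls and at 7.68, 7.50, 7.95 and 7.69 in Grb2_cKO. No Grb2_cKO embryo reached the controls (-0.52, SE 0.11, adjusted p = 0.00657). Prom1, a protein of apical protrusions, stood at 10.01, 10.04, 9.86 and 9.78 in controls and at 9.67, 9.63, 9.70 and 9.55 in Grb2_cKO, a small shift without overlap (-0.29, SE 0.08, adjusted p = 0.0196). The call on Prom1 was lost without control replicate 1 (-0.26, adjusted p = 0.0522) or 2 (-0.25, 0.0639). Mal, of apical transport, at -0.20 (SE 0.15, adjusted p = 0.371) and Rab25, of apical recycling, at -0.29 (SE 0.13, adjusted p = 0.132) did not pass. Y-adjusted, Ap1m2 stood at -0.58 (adjusted p = 0.110) and Prom1 at -0.23 (0.374), neither past the threshold.

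Membrane-bound serine proteases of epithelia are held in check by Kunitz-type inhibitors on the same cells, and the 4 members of this system did not move together: St14 and Spint2 fell and Prss8 and Spint1 did not pass. St14, which encodes matriptase, stood at 8.96, 9.02, 8.84 and 8.92 in controls and at 8.46, 8.37, 8.68 and 8.68 in Grb2_cKO. All Grb2_cKO embryos were below the controls (-0.39, SE 0.09, adjusted p = 0.00903). Prss8, which encodes prostasin, stood at 9.68, 9.64, 9.80 and 9.999 in controls and at 9.87, 9.67, 10.22 and 10.06 in Grb2_cKO, interleaved (0.18, SE 0.13, adjusted p = 0.352). Of the inhibitors, Spint2 stood at 9.37, 9.54, 9.70 and 9.66 in controls and at 9.11, 9.10, 9.39 and 9.26 in Grb2_cKO, where Grb2_cKO replicate 3 just exceeded control replicate 1 (-0.35, SE 0.10, adjusted p = 0.0217). The call on Spint2 was lost without control replicate 3 (-0.31, adjusted p = 0.0618) or 4 (-0.32, 0.0561) and without Grb2_cKO replicate 1 (-0.32, 0.0584) or 2 (-0.32, 0.0557). Spint1 stood at 8.60, 8.87, 9.24 and 9.23 in controls and at 8.94, 8.80, 9.27 and 9.20 in Grb2_cKO, interleaved (0.07, 95% interval -0.29 to 0.42, adjusted p = 0.816). In the Y-adjusted model, St14 stood at -0.29 (adjusted p = 0.299) and Spint2 at -0.49 (0.104), neither past the threshold.

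Of the 9 genes of water, salt and hormone transport, 2 fell, 1 rose and 6 did not pass (median -0.06), near the shares over all genes (28.1% called, 14.3% lower and 13.7% higher). The epithelial sodium channel, built of alpha, beta and gamma subunits, changed unevenly. Scnn1a, the alpha subunit, stood at 7.22, 7.46, 7.42 and 7.43 in controls and at 8.03, 7.89, 8.14 and 8.44 in Grb2_cKO. Every Grb2_cKO embryo was above every control, a 1.68-fold rise (0.75, SE 0.12, 95% interval 0.487 to 1.004, adjusted p = 0.00119). Scnn1b, the beta subunit, stood at 9.40, 9.36, 9.26 and 9.21 in controls and at 9.02, 8.79, 9.29 and 9.22 in Grb2_cKO, with replicates 3 and 4 inside the control range (-0.23, SE 0.11, adjusted p = 0.157). It passed as lower with arrays centred on their medians (-0.30, adjusted p = 0.0490). Scnn1g, the gamma subunit and the neighbour of Scnn1b on chromosome 7, stood at 9.29, 9.39, 9.46 and 9.36 in controls and at 9.06, 8.93, 9.20 and 9.12 in Grb2_cKO, without overlap (-0.30, SE 0.08, adjusted p = 0.0161). With the Y-linked covariate, Scnn1a stood at 0.70 (adjusted p = 0.0717) and Scnn1g at -0.38 (0.117), neither past the threshold.

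Of the water channels, Aqp4, found on the basolateral side of principal cells, stood at 6.71, 6.48, 6.74 and 6.78 in controls and at 6.13, 6.30, 6.12 and 6.05 in Grb2_cKO. It was lower in every Grb2_cKO embryo (-0.53, SE 0.09, adjusted p = 0.00168) and, Y-adjusted, at -0.58 (adjusted p = 0.0532). Aqp2, the vasopressin-regulated apical channel, stood at 6.78, 6.72, 6.75 and 6.99 in controls and at 6.81, 6.76, 6.96 and 6.48 in Grb2_cKO, with overlap (-0.06, 95% interval -0.30 to 0.18, adjusted p = 0.762). Aqp3, a basolateral channel, stood at 6.43, 6.55, 7.12 and 6.90 in controls and at 7.04, 6.73, 7.49 and 7.24 in Grb2_cKO. Control replicate 3 stood higher than the other controls and inside the Grb2_cKO range (0.38, SE 0.19, adjusted p = 0.172). Avpr2, the vasopressin receptor gene on the X chromosome, was below the controls in every Grb2_cKO embryo, at 6.80, 7.07, 7.06 and 6.28 against 7.26, 7.20, 7.18 and 7.08, but varied too much to pass (-0.38, SE 0.16, adjusted p = 0.107). Hsd11b2, whose enzyme shields the mineralocorticoid receptor from glucocorticoids, spanned 10.53 to 10.61 in Grb2_cKO, inside a control range of 10.02 to 10.73 (0.19, SE 0.14, adjusted p = 0.364). Kcne1, a potassium channel subunit gene, did not pass (-0.0016, 95% interval -0.24 to 0.24, adjusted p = 0.994). Ranked by mean level from the dimmest gene, Aqp2, Aqp3, Aqp4, Avpr2 and Kcne1 stood between 37.8% and 46.6% of all genes. How near their values lay to background is unknown.

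**Figure D3:**
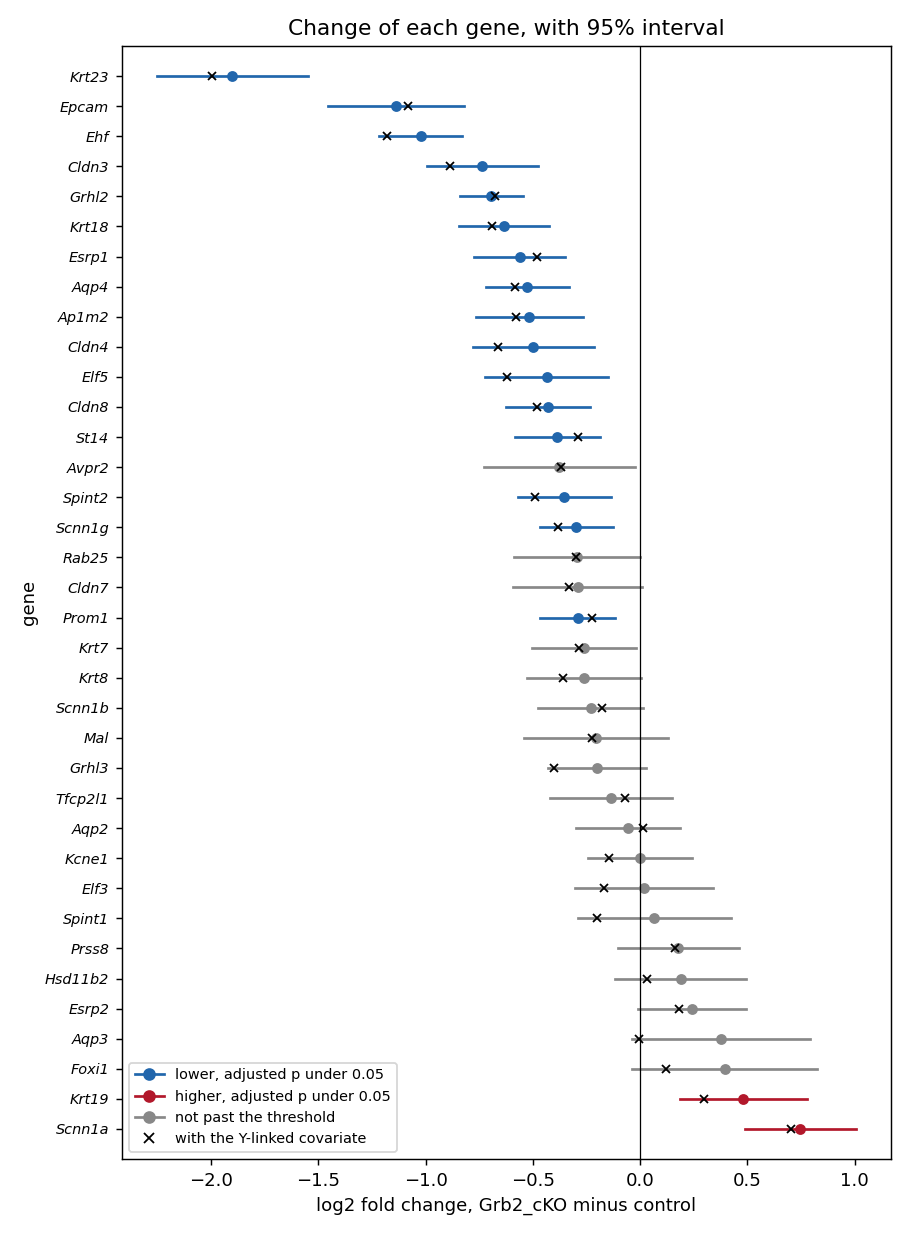
Log2 fold change of each of the 36 genes (Grb2_cKO minus control, n = 4 each) with its 95% interval from limma, sorted by size, and the Y-adjusted estimate as a cross. Blue genes passed as lower (16), red genes as higher (Scnn1a and Krt19), and the rest did not pass; the crosses of all called genes lie on the same side of 0 as their points.

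Since a gene can pass while its relative misses the threshold without the 2 being shown to differ, the balance within 12 pairs of related genes was tested directly, as the log2 difference of the 2 genes in each embryo, with a two-sided exact permutation test. In 10 of 12 pairs the groups did not overlap, which gave the smallest possible p of 0.0286 (adjusted over the 12 pairs 0.0343). Over all pairs of the 22180 genes the groups separated in 31.7%. The 12 pairs were chosen with earlier results of these data known, so their count is a description and not a result about such families. Some pairs share a gene, and no pair was adjusted for the Y-linked mean. The control nearest to Grb2_cKO was replicate 3 in Esrp1 with Esrp2, Grhl2 with Grhl3 and Krt7 with Krt19. It was control replicate 4 in the other separated pairs. For Aqp2 with Aqp3, control replicate 3 (-0.38) lay inside the Grb2_cKO range. The part of sex in these differences was not tested. Esrp1 relative to Esrp2 fell by 0.80, from between 0.35 and 0.65 in controls to between -0.43 and -0.19 in Grb2_cKO. Grhl2 relative to Grhl3 fell by 0.49, and its lowest control (0.10) lay close to the highest Grb2_cKO embryo (-0.03). Ehf lost ground to both other ETS factors, with Elf3 relative to Ehf higher by 1.04 and Elf5 relative to Ehf by 0.59.

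Scnn1a relative to Scnn1b was higher by 0.98, from between -2.18 and -1.78 in controls to between -1.15 and -0.78 in Grb2_cKO. This shift in subunit balance was among the largest of the pairs. In the protease system, St14 relative to Prss8 fell by 0.56 and Spint1 relative to Spint2 was higher by 0.42. Of the keratins, Krt8 relative to Krt18 was higher by 0.37, although the 2 genes are neighbours, and Krt7 relative to Krt19 fell by 0.74. Cldn3 relative to Cldn4 fell by 0.24, the smallest of the separated pairs. The 2 pairs that did not pass were Aqp2 with Aqp3 (-0.43, exact p = 0.143, adjusted p = 0.156) and Cldn7 with Cldn8 (0.14, exact p = 0.371, adjusted p = 0.371), and in both the ranges of the groups overlapped.

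**Figure D4:**
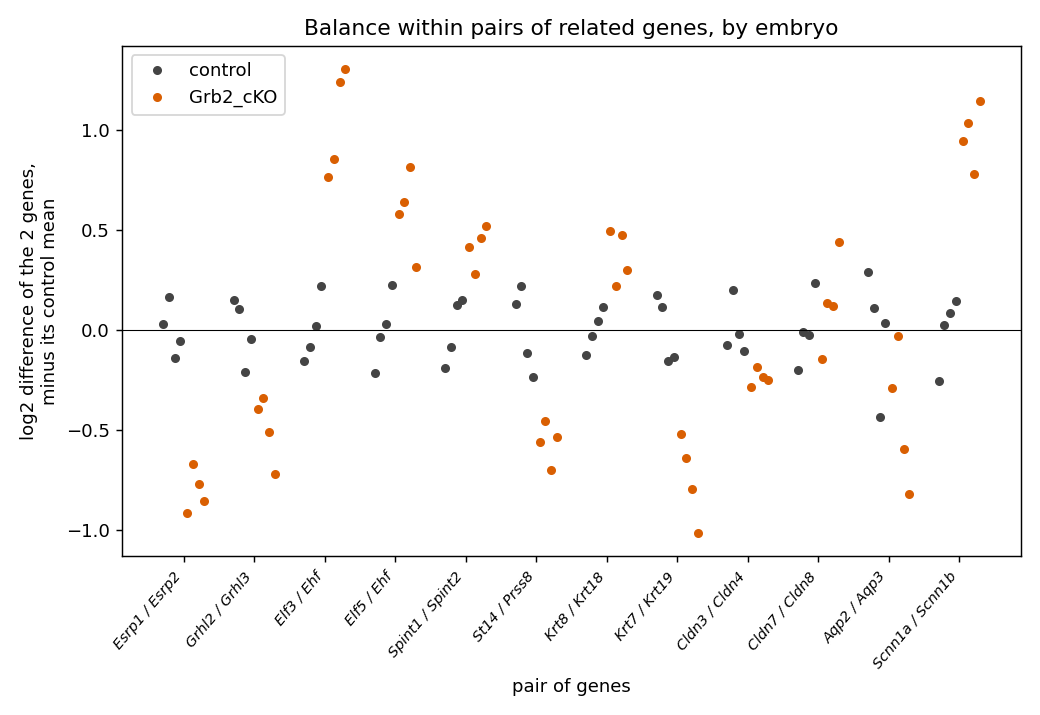
Log2 difference between the 2 genes of each of 12 pairs (first minus second gene) in every embryo, shown relative to its mean in the 4 controls, with controls in grey and Grb2_cKO in orange. The groups separate in 10 pairs and overlap in Cldn7 / Cldn8 and Aqp2 / Aqp3.

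The Grb2_cKO embryos varied among themselves. Replicate 2 had the lowest value of the 4 for 27 of the 36 genes and replicate 3 the highest for 19. The shares of all genes ordered this way were not counted. The median of the 36 deviations from the control mean was -0.48 in replicate 2, -0.30 in replicate 1, -0.25 in replicate 4 and -0.17 in replicate 3, while in controls it ran from -0.07 to 0.06. The median over all genes was 7.22 in replicate 2 and 7.25 to 7.32 in the other Grb2_cKO embryos, and its part in this order was not tested. The SD was larger among Grb2_cKO embryos than among controls for 25 of the 36 genes, beside 54.9% of all genes. The median SD was 0.19 against 0.13, beside 0.13 against 0.12 over all genes.

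The genes around these 36 gave the setting, in marker lists that hold none of them. The lists overlap: Lhx1 and Tfap2b count in both the trunk and the early nephron list, and Krt20 in both trunk and urothelial lists. Of 35 further epithelial genes, 15 were lower, 4 higher and 16 under the threshold (median -0.24). Over all genes 14.3% were lower and 13.7% higher. Macc1 fell by 1.06 (SE 0.15, adjusted p = 0.000721), Dsg2, a desmosomal cadherin gene, by 0.58 (SE 0.09, 0.00132), Cdcp1 by 0.57 (SE 0.08, 0.00052) and Lad1 by 0.44 (SE 0.07, 0.00156), while Cldn1, a further claudin gene, rose by 0.99 (SE 0.13, 0.000492). Cdh1, the E-cadherin gene and the textbook mark of epithelium, did not pass (-0.17, SE 0.12, adjusted p = 0.335), a gene chosen after its values were seen. With the probe sets of a gene averaged, Dsg2 stood at -0.27 (adjusted p = 0.00830), and Y-adjusted at -0.37 (0.130). Y-adjusted, 2 of these 19 changed genes passed, Macc1 and Cldn1.

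Ureteric trunk genes outside the 36 were lower in 10 of 17 cases, higher in 1 and not past the threshold in 6 (median -0.41). For this list and the tip list below, the shares over all genes were 14.3% lower and 13.7% higher. Calb1 fell by 3.53 (SE 0.32). Aldh1a3, a retinoic acid synthesis gene, fell by 1.44 (SE 0.10), the lineage factor Pax2 by 0.96 (SE 0.14), Tfap2a by 0.88 (SE 0.14) and Emx2 by 0.48 (SE 0.07). Ureteric tip genes moved further, with 12 of 15 lower and 1 higher (median -1.02), among them Slco4c1 at -3.76, Ros1 at -2.72, Ret at -2.46, Spry1 at -1.23 and Myb at -1.02. With the probe sets of a gene averaged, Myb stood at -0.56 (adjusted p = 0.00104). The tip list averaged between 8.96 and 9.21 per control and between 7.85 and 8.07 per Grb2_cKO embryo, and that of the trunk list 8.91 to 9.10 and 8.45 to 8.61. For the 36 it was 8.38 to 8.55 and 8.01 to 8.34. After adjustment for the Y-linked mean, 11 of the 13 changed tip genes and 4 of the 11 changed trunk genes passed. Of the trunk genes named here, Tfap2a did not pass (Y-adjusted -0.88, adjusted p = 0.0647).

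Among 13 further collecting duct transport genes, 2 were lower, 3 higher and 8 under the threshold (median 0.12), beside 14.3% of all genes lower and 13.7% higher. Fxyd4, a sodium pump regulator gene of the duct, fell by 0.37 (SE 0.07, adjusted p = 0.00268) and the urea transporter gene Slc14a2 by 0.51 (SE 0.11, 0.00737). Kcnma1, a large-conductance potassium channel gene, rose by 1.42 (SE 0.11, 4.63e-05), Cryab by 0.96 (SE 0.24, 0.0135) and Nedd4l, the ubiquitin ligase gene that removes the sodium channel from the membrane, by 0.32 (SE 0.07, 0.00657). With the probe sets of a gene averaged, Kcnma1 stood at 0.65 and Cryab at 0.63, both past the threshold. Of these 5 genes only Kcnma1 passed with the Y-linked covariate. Of 13 intercalated cell genes 2 rose, Slc26a7 by 1.47 (SE 0.10, adjusted p = 3.16e-05) and Insrr by 0.54 (SE 0.09, 0.00169), and Slc26a7 passed with the covariate. The other 11 did not pass, and their values overlapped between the groups. All 13 log2 fold changes were above 0 (median 0.16), but the share of all genes above 0 was not counted.

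Other compartments moved beside these genes, and their part in the results on the 36 was not tested. Over all genes 14.3% were lower and 13.7% higher. Mesenchymal markers rose in 16 of 19 cases (median 0.44, mean level 10.4 to 10.5 in controls and 10.99 to 11.07 in Grb2_cKO), and the 3 with the smallest p were Prrx1 at 1.27, Postn at 0.83 and Pdgfra at 0.67. Nephron progenitor genes fell in 11 of 14 cases (median -0.98, 10.1 to 10.3 against 8.93 to 9.41), and early nephron and distal tubule genes in 9 of 19 (median -0.13, 8.88 to 8.95 against 8.62 to 8.93), with none higher in either list. Podocyte markers rose in 6 of 6 cases (median 0.82, 8.65 to 8.83 against 9.21 to 9.84), macrophage markers in 8 of 10 (median 0.91, 7.33 to 7.59 against 8.25 to 8.67), endothelial markers in 6 of 10 (median 0.24, 9.71 to 9.77 against 9.996 to 10.26), erythroid markers in 5 of 7 (median 0.92) and proximal tubule markers in 2 of 7 (median 0.27, 7.48 to 7.95 against 7.79 to 8.54). Y-adjusted, 5 of the 16 mesenchymal, 7 of the 11 progenitor, 1 of the 9 early nephron, 1 of the 6 podocyte, 4 of the 8 macrophage, 0 of the 6 endothelial, 1 of the 5 erythroid and 1 of the 2 proximal tubule genes passed in limma.

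**Figure D5:**
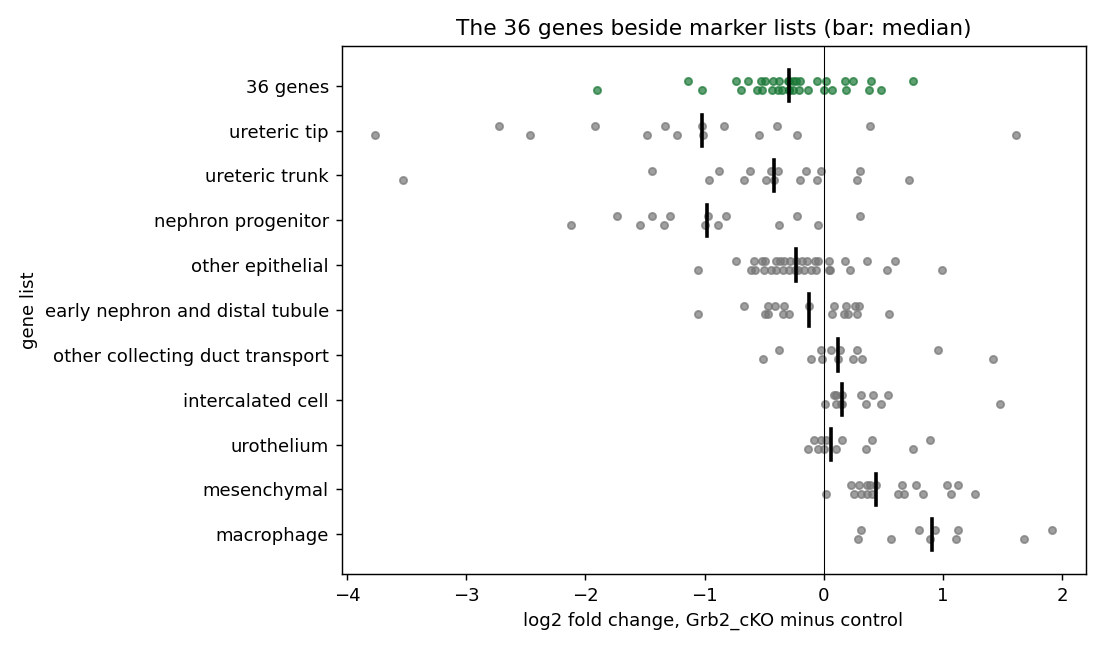
Log2 fold change (Grb2_cKO minus control) of every gene of the 36 (green) and of 10 marker lists (grey), 1 point per gene, with a bar at each list's median. The median of the 36 (-0.29) lies between those of the ureteric trunk list (-0.41) and the further epithelial genes (-0.24), and Scnn1a is the point farthest to the right among the 36.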

How the data were processed

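Kidney RNA of 8 embryos was measured on 1-colour arrays. Each array took 200 ng of total RNA from the pooled kidneys of 1 embryo, amplified and labelled with biotin, per the labels' protocols. The values are log2 probe-set values, made by the authors before deposit. Per the submitters' processing notes the Transcriptome Analysis Console was used. Background correction, summarization and normalization: not given in the sources used here. The log2 scale is inferred from the values, which ran from 1.25 to 14.08 over all probe sets with array medians of 6.61 to 6.72. No value was transformed again. No detection calls or batch records were used, and the number of arrays limits the precision.

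Of 41345 probe sets, 23521 had 1 gene symbol, 1814 several and 16010 none in the platform annotation used here. Symbols were updated through Entrez identifiers to the RefSeq table of GRCm38.p6 for 23328. The probe set with the highest mean stood for a gene, which gave 22180 genes. Of the 36 genes, Krt18 had 2 probe sets and the others 1. Promoter sequences and gene neighbours are from RefSeq on GRCm38.p6.

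Groups were compared in limma 3.58.1 (R 4.3.3) with lmFit and eBayes on 4 and 4 arrays without a covariate, and p-values were adjusted by Benjamini-Hochberg over 22180 genes at a threshold of 0.05. Adjusted p-values are from this model unless named otherwise. A positive fold change means higher in Grb2_cKO, and SEs are the moderated ones. Pairs and Grb2 were tested by exact permutation over 70 assignments. The model was tested on simulated data. Every one of the 36 genes is named, with values in each embryo for the called ones, and from each marker list up to 5 genes of smallest p. The genes, lists, pairs and the alternative with control replicate 3 alone were chosen with earlier results of these data known. Replicate numbers follow the order of the sample records and pair nothing.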

Additional observations from a re-analysis of the deposited data

Results flagged for a closer look

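Over the 72 sets of 4 embryos (36 genes in 2 groups), 4 held an embryo that stood apart, judged by its gap to the nearest embryo as a share of the whole range of its group, where chance sets about 5% of such sets apart. In controls, Scnn1a was low in replicate 1 (gap share 0.832), Krt18 was low in replicate 4 (0.912) and Krt19 was high in replicate 3 (0.891). In Grb2_cKO, Rab25 was low in replicate 2 (0.853). Without the embryo that stood apart the log2 fold changes were 0.69 for Scnn1a, -0.69 for Krt18, 0.54 for Krt19 and -0.17 for Rab25.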

How the results depend on the processing

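Of the 36 genes, 16 stayed lower and 2 higher in count without the dimmest 25% of genes, with probe sets of a gene averaged, with a trended and robust spread, with array weights and at a threshold of 0.1. The counts were 17 and 2 after quantile normalization and 19 and 2 with arrays centred on their medians. At a threshold of 0.01 they were 11 and 1, with 3809 of all genes past it. With the Y-linked covariate 6 were lower and 0 higher (1246 of all genes), with the erythroid covariate 0 and 0 (81 of all genes), and with control replicate 3 as the only control, assumed to vary like the other group, 4 and 0 (285 of all genes); fewer controls or a covariate that follows the groups leave a larger error by construction. Leaving out each embryo in turn gave 14 to 16 lower and 1 to 3 higher genes, 4894 to 5955 of all genes, and a median from -0.32 to -0.20.

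Of the 18 called genes none changed sign under any alternative. Of the genes that had not passed, 10 did: Elf3 stood at -0.029 after quantile normalization, -0.050 with arrays centred on their medians, -0.17 with the Y-linked covariate, -0.16 with control replicate 3 alone and -0.072 to 0.13 without 1 embryo. Spint1 stood at -0.0017, -0.20, -0.19 and -0.064 to 0.15 with the centring, the Y-linked covariate, control replicate 3 alone and without 1 embryo, and at -0.090 with the erythroid covariate. Aqp2 stood at 0.014 with array weights, 0.011 with the Y-linked covariate, 0.0042 with control replicate 3 alone and -0.13 to 0.033 without 1 embryo, Kcne1 at 0.016 with array weights and -0.10 to 0.046 without 1 embryo, and Aqp3 at -0.0032 with the Y-linked covariate. With the erythroid covariate Tfcp2l1 stood at 0.26, Hsd11b2 at -0.34, Scnn1b at 0.076, Mal at 0.13 and Avpr2 at 0.033. The cause of these changes was not tested. No paired analysis was possible because the labels give the groups no shared replicate numbers.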
